A study of Mus musculus with 6 samples.

Results

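The binding sites of IRF8 and JUNB in resting mouse macrophages were compared peak by peak. The members are the 37525 peaks of the IRF8 control list and the 3940 peaks of the JUNB control list, together 41465 of the 134964 peaks in the 6 lists of the series. An overlap of at least 1 bp divided them into 4 groups, which were 3185 JUNB peaks with IRF8, 755 JUNB peaks without IRF8, 3185 IRF8 peaks with JUNB and 34340 IRF8 peaks without JUNB. The overlap made 3197 pairs, because 12 IRF8 peaks met 2 or more JUNB peaks and 11 JUNB peaks met 2 or more IRF8 peaks, and the equal count of 3185 on both sides is a coincidence.

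The peaks came from chromatin immunoprecipitation sequencing (ChIP-seq) of bone marrow-derived macrophages (BMDMs), primary cells matured in culture from marrow progenitors. Per the labels, both control samples were Wt cells from mice of 8 to 12 weeks, cultured for 6 days with L929 supernatant as a source of macrophage colony-stimulating factor, and received no IL-4. All strains of the study were on a C57BL/6 background. Each factor had 1 control sample, so no value below has a replicate, no test between conditions was possible, and intervals are 95% binomial intervals (Wilson for a share, Newcombe for a difference of shares) that cover counting error only.

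IRF8 is an interferon regulatory factor that myeloid cells need for their development. It binds GAAA repeats in interferon response elements, and it binds ETS-IRF composite elements beside PU.1, the ETS factor that specifies macrophages. JUNB is a subunit of AP-1, a dimer of JUN, FOS or BATF family proteins that recognises TGACTCA, and in macrophages both factors occupy enhancers before a signal arrives. AP-1 dimers that hold a BATF protein can bind together with an IRF at AP-1-IRF composite elements.

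The sequences below show the strongest peaks of the groups by score, and the strongest shared peaks that held an AP-1 site or an AP-1-IRF composite. Each is 120 bases of the plus strand of GRCm38 (mm10), and capitals mark motif matches on either strand. The strongest JUNB peak without IRF8 lay nearest to Reep3 and held TGACTCA once on each strand, and the second lay in intron 5 of 2310022A10Rik.

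Reep3, JUNB without IRF8, chr10:66928224-66928343: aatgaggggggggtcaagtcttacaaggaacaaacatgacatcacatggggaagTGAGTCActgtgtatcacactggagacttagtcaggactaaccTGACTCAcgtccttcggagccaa
2310022A10Rik, JUNB without IRF8, chr7:27574272-27574391: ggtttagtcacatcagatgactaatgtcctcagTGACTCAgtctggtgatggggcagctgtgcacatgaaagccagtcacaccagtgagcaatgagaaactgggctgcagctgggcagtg

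The strongest IRF8 peaks without JUNB were intergenic, nearest to Pla2g4a and Ube2e3, and both held an ETS-IRF composite (GGAA, any 2 bases, GAAA). The first also held a C/EBP-type match, and the second a PU.1-type match (GAGGAAGT) that overlaps the composite.

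Pla2g4a, IRF8 without JUNB, chr1:148903213-148903332: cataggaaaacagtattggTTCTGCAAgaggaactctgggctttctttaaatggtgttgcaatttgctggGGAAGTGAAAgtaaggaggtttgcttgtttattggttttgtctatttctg
Ube2e3, IRF8 without JUNB, chr2:79036443-79036562: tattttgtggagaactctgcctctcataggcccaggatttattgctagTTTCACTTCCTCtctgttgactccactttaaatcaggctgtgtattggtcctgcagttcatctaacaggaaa

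Among the JUNB peaks with IRF8, the highest score fell on a simple repeat nearest to Arid1b and the next on exon 5 of Pparg, and neither printed window held any of the 7 motifs searched. The strongest overlapping peak outside such repeats that held an AP-1 site was intergenic, nearest to Fmo9. The strongest that held an AP-1-IRF composite was in intron 2 of Stap1, where the AP-1 site stands directly beside the GAAA of an IRF, read on the minus strand. The Fmo9 and Stap1 windows are centred on the match, and the Fmo9 window was added to the rule after values were seen.

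Arid1b, JUNB with IRF8, chr17:4626320-4626439: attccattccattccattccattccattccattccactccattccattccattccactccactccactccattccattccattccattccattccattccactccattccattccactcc
Pparg, JUNB with IRF8, chr6:115450967-115451086: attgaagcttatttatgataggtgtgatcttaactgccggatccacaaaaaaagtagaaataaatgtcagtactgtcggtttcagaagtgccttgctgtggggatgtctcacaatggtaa
Fmo9, JUNB with IRF8, chr1:166788090-166788209: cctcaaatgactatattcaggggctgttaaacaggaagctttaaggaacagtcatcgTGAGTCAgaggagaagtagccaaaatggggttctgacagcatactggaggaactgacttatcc
Stap1, JUNB with IRF8, chr5:86078783-86078902: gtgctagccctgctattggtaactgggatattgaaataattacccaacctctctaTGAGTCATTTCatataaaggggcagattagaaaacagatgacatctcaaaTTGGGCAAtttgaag

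JUNB binding lay mostly within IRF8 binding, while most IRF8 binding had no JUNB peak. IRF8 covered 80.8% of the JUNB list (3185 of 3940 peaks, interval 79.6 to 82.0%), and JUNB covered 8.49% of the IRF8 list (3185 of 37525 peaks, interval 8.21 to 8.77%). The lists differ in length and the sequencing depth of both samples is unknown, so how much of this difference comes with the number of peaks called cannot be told apart from binding. When the IRF8 list was shortened to its 3940 strongest peaks, 18.9% of JUNB peaks and 18.8% of IRF8 peaks overlapped.

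The overlapping peaks were nearly concentric. The median distance between their centres was 40 bp, and 2723 of the 3197 pairs (85.2%) had centres within 100 bp. The JUNB peak lay wholly inside the IRF8 peak in 1759 pairs (55.0%), and 27 pairs shared less than 50 bp. Peaks were wider where both factors were found, with a median of 338 bp against 261 bp in the IRF8 list and 219 bp against 196 bp in the JUNB list. A wider peak meets the overlap rule more easily, so the grouping itself favours wider peaks among the shared ones. Whether shared peaks were wider apart from this rule, or at an equal score, was not tested.

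The distance to the nearest IRF8 peak was measured for the 755 JUNB peaks without IRF8. No other positions were measured, so whether these peaks lay unusually close to IRF8 was not tested. Their median gap to the nearest IRF8 peak was 4140 bp, with 30 peaks within 100 bp, 144 (19.1%) within 1000 bp and 544 (72.1%) within 10000 bp. Of them, 423 (10.7% of the JUNB list) overlapped no C/EBPα control peak either. A total of 294 overlapped no IRF8 or C/EBPα peak in control or IL-4.

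The share of peaks with the other factor rose with the peak score in both lists. The peak score has no stated unit, and it was used only as a rank within each list, given as a percentile. Among JUNB peaks, the share with IRF8 was 69.7% (65.0 to 74.1%) in the lowest decile by score and 92.7% (89.7 to 94.8%) in the highest. Among IRF8 peaks, the share with JUNB was 2.51% (2.05 to 3.06%) in the lowest decile and 18.9% (17.7 to 20.2%) in the highest. The shares rose at each step of the IRF8 list, and in the JUNB list they fell between the second and the third decile and between the fifth and the sixth, by less than the width of their intervals.

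**Figure D1:**
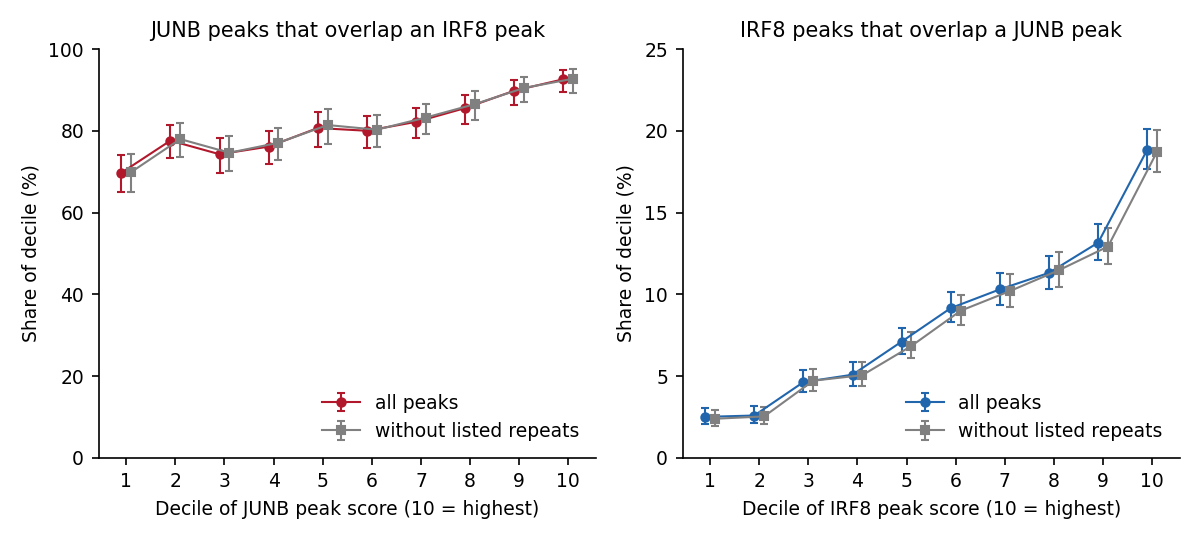
Share of JUNB peaks that overlap an IRF8 peak (left) and of IRF8 peaks that overlap a JUNB peak (right), in percent, for each decile of the list by peak score, with 95% Wilson intervals. Grey squares leave out peaks on simple, satellite, low-complexity or RNA-gene repeats or chromosome M. The share rose from 69.7% to 92.7% on the left and from 2.51% to 18.9% on the right.

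Shared peaks ranked higher than unshared ones in both lists. The median percentile was 53.4 for JUNB peaks with IRF8 and 39.7 for those without, at median scores of 8.09 and 6.79. It was 70.7 for IRF8 peaks with JUNB and 47.8 for those without, at median scores of 19.67 and 9.66. Within the shared sites the ranks of both factors were nearly unrelated. Spearman's rho of the percentiles was 0.078 over the 3197 pairs, which all come from 1 sample of each factor, and 0.0767 over the 3000 pairs off the repeats described next.

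The top of the JUNB list was made largely of repeats. Of the 20 highest JUNB peaks, 18 lay on simple, satellite, low-complexity or RNA-gene repeats or on chromosome M. All 20 overlapped IRF8, 20 were also in the JUNB list after IL-4, and 1 held an AP-1 site. Among the 394 highest, 76 lay on such repeats, 365 overlapped IRF8 and 206 held an AP-1 site. None of the 20 highest IRF8 peaks lay on such repeats. Over all peaks these repeats took 4.90% of JUNB peaks with IRF8 and 6.89% of those without, and 5.12% and 3.84% of IRF8 peaks with and without JUNB. With such peaks left out of both lists, 80.1% of JUNB peaks and 8.30% of IRF8 peaks overlapped. With them left out only of the list that was divided into deciles, the share in the highest decile was 92.8% for JUNB and 18.7% for IRF8.

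The highest JUNB peak overlapped IRF8 at chr17:4626087-4626673, with a JUNB score of 156.47 and an IRF8 score of 118.56. It lies on the repeat nearest to Arid1b, which encodes a subunit of the BAF chromatin remodeller. Its distance from the transcription start site of Arid1b was -368694 bp, where a negative distance is upstream. Nearest genes are named by position only, and whether a peak acts on its nearest gene was not tested. The peak on exon 5 of Pparg, the gene of the lipid-sensing nuclear receptor PPARγ, scored 98.89 for JUNB and 34.61 for IRF8. It held no AP-1 site and overlapped no C/EBPα peak, and exons 3 and 4 of the same gene also carried JUNB peaks, which no other gene did on 2 or more exons. What produced these peaks was not tested. The others of the top 5 lay on chromosome M (98.01) and on repeats nearest to Mrgprd (88.57) and D17Wsu104e (84.01). Outside the repeats, the next after Pparg lay nearest to Fmo9 (70.91), a flavin-containing monooxygenase gene, with an IRF8 score of 53.06, then Gm1631 (57.35), Macc1 (54.10) and Tbc1d14 (53.96). The peaks at Fmo9 and Gm1631 held an AP-1 site, and those at Macc1 and Tbc1d14 did not.

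All 5 of the strongest JUNB peaks without IRF8 held an AP-1 site. They lay nearest to Reep3 (score 63.61), 2310022A10Rik (41.03), Mdm2 (37.23), Bach1 (31.22) and Dock10 (26.70). Of the 29 JUNB peaks without IRF8 in the highest score decile, 17 held an AP-1 site. In the same 29, 17 overlapped C/EBPα and 17 a JUNB peak after IL-4. Mdm2 encodes the ubiquitin ligase of p53, and Bach1 a haem-sensing repressor of the leucine zipper class. The peaks at Reep3, 2310022A10Rik, Mdm2 and Bach1 overlapped C/EBPα and a JUNB peak after IL-4, and the Dock10 peak did neither. Those at Reep3, Mdm2 and Bach1 also overlapped an IRF8 peak after IL-4, and those at 2310022A10Rik and Dock10 did not.

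The strongest IRF8 peaks carried JUNB at very different ranks. The top IRF8 peak with JUNB, nearest to Gm13498, scored 310.32 for IRF8 and 38.22 for JUNB, which is the JUNB percentile 98.69. At Niacr1, the receptor for niacin and ketone bodies, an IRF8 score of 266.92 stood beside a JUNB score of 4.82, at percentile 16.50. Zfhx3 (IRF8 267.79, JUNB 27.39), Rgl1 (260.38 and 14.51) and Gm20125 (258.07 and 11.23) lay between them in JUNB score. None of these 5 peaks held an AP-1 site, and 4 of them held an ETS-IRF composite. Of the 708 IRF8 peaks with JUNB in the highest score decile, 24.0% held an AP-1 site and 29.9% the composite.

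The strongest IRF8 peaks without JUNB lay nearest to Pla2g4a (302.53), which encodes cytosolic phospholipase A2, Ube2e3 (262.19), a ubiquitin-conjugating enzyme, Clec4g (258.72), a C-type lectin, Nrp1 (257.99), a semaphorin and VEGF coreceptor, and Dct (257.50), a melanin synthesis enzyme. Their distances from the transcription start sites of these genes were 1058011, 167456, 8804, -280151 and 426693 bp in that order. All 5 peaks overlapped C/EBPα and persisted after IL-4, and 4 held an ETS-IRF composite. Of the 3045 IRF8 peaks without JUNB in the highest score decile, all persisted, 58.1% overlapped C/EBPα and 42.0% held the composite. At Pla2g4a and Nrp1 the JUNB list after IL-4 had a peak where the control list had none.

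In some pairs a strong peak of one factor met a weak peak of the other. The pairs with the largest excess of the JUNB percentile lay near 6430531B16Rik (97.86 for JUNB, 4.13 for IRF8), Cux1 (91.48 and 1.98) and Htatip2 (87.99 and 0.260), and all 3 held an AP-1 site. The pairs with the largest excess of IRF8 lay near Csnk1g3 (0.0381 for JUNB, 99.19 for IRF8), Cdkn2b (0.609 and 99.38) and Htra4 (1.497 and 99.46), and none held one. Cux1 encodes a homeobox factor and Cdkn2b the cell cycle inhibitor p15.

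The AP-1 site set the IRF8 peaks with JUNB apart from the rest of the IRF8 list. TGACTCA was present on either strand within 200 bp around the centre of 38.6% of IRF8 peaks with JUNB (36.9 to 40.3%) and 8.55% of those without (8.26 to 8.85%), a difference of 30.03 points (28.3 to 31.8). The difference had this sign in 10 of 10 score deciles, and it was 18.8 points in the highest decile, 19.1 against the 3940 strongest IRF8 peaks and 19.6 with a window of 100 bp. It did not split the JUNB list in the same way. There the site was present in 45.5% of peaks with IRF8 (43.8 to 47.3%) and in 56.6% of those without (53.0 to 60.1%), a difference of -11.03 points (-14.9 to -7.07), with this sign in 9 of 10 deciles. In the highest JUNB decile, with 29 peaks without IRF8, the interval of the difference (-6.71 points, -23.4 to 11.9) holds 0. In windows of the same length 2000 bp to either side, 3.66 to 3.86% held the site in the 4 groups. GC content was 45.7 to 47.8% in the peak windows and 43.7 to 45.0% in the flanks.

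Matches crowded at the peak centre. Within 20 bp of the centre, 9.77% of JUNB peaks with IRF8 and 12.9% of those without held an AP-1 site per 20-bp bin, against 0.449% and 0.729% beyond 200 bp. For IRF8 the values were 6.14% with JUNB and 1.18% without, against 0.559% and 0.371%. The AP-1 site was thus also centred in the IRF8 peaks with JUNB, at a lower share than in the JUNB peaks.

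**Figure D2:**
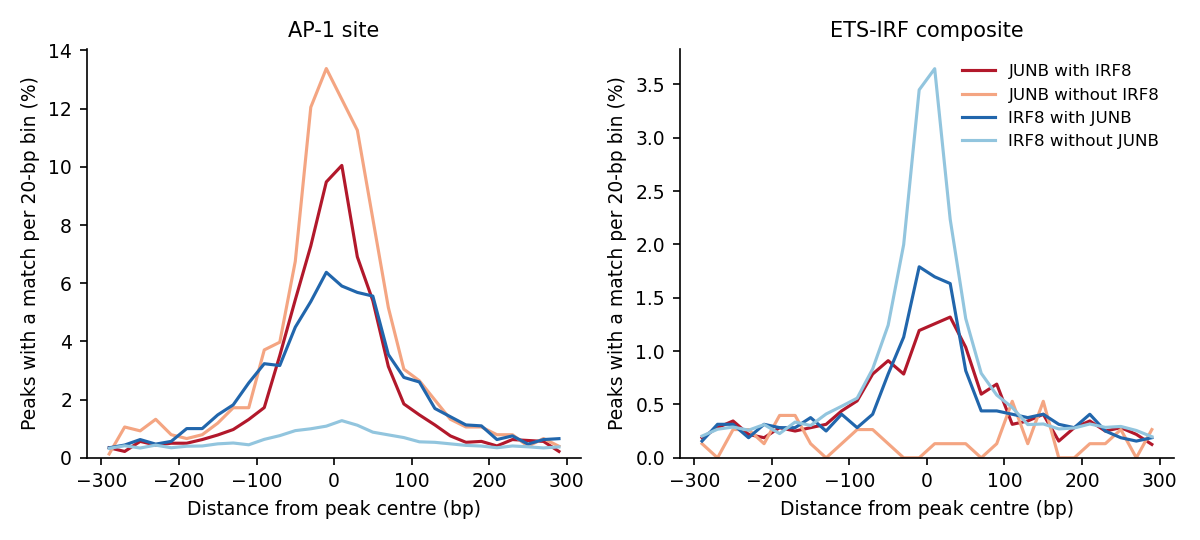
Share of peaks with an AP-1 site (left) or an ETS-IRF composite (right) per 20-bp bin, in percent, against distance from the peak centre in bp, for the 4 groups. AP-1 sites peaked at the centre of JUNB peaks without IRF8 (12.9% within 20 bp) and least in IRF8 peaks without JUNB (1.18%), and ETS-IRF composites in the reverse order (0.0663% and 3.55%).

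The IRF-type elements showed the reverse pattern. The ETS-IRF composite was present in 15.5% of IRF8 peaks without JUNB (15.2 to 15.9%) and 8.98% of those with JUNB (8.04 to 10.02%), a difference of -6.56 points (-7.58 to -5.45) with the same sign in 10 of 10 deciles. In the JUNB list it was present in 8.57% of peaks with IRF8 (7.65 to 9.59%) and in 1.06% of those without (0.538 to 2.08%), a difference of 7.51 points (6.14 to 8.66), also in 10 of 10 deciles. In the flanking windows of the JUNB peaks without IRF8 the share was 1.66%, within the interval of the peaks themselves.

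The interferon response element, which is GAAA, any 2 bases and GAAA, was found in 10.2% of IRF8 peaks without JUNB and 4.62% of those with JUNB, a difference of -5.57 points (-6.32 to -4.72). In the JUNB list the shares were 4.11% with IRF8 and 1.99% without (difference 2.13 points, 0.710 to 3.21). The PU.1-type site was found in 13.6% and 12.3% of IRF8 peaks without and with JUNB, and in 3.31% and 11.8% of JUNB peaks without and with IRF8. Matches of the ETS-IRF composite can overlap those of the PU.1-type site and the interferon element, so these counts are not independent.

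The C/EBP-type site (TTGC, any 2 bases, AA) was higher in the shared groups on both sides. It was found in 17.96% of IRF8 peaks with JUNB against 13.5% without (difference 4.45 points, 3.10 to 5.86), and in 18.2% of JUNB peaks with IRF8 against 12.8% without (difference 5.30 points, 2.41 to 7.90). The flanking windows of the groups held it in 7.351 to 8.997%.

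AP-1-IRF composites were uncommon. They were searched as an AP-1 site with TTTC 4 bases before it, or with GAAA directly before it, on either strand, and each contains an AP-1 site. They were found in 88 JUNB peaks with IRF8 (2.76%) and 11 without (1.46%), and in 75 IRF8 peaks with JUNB (2.36%) and 141 without (0.411%). Among peaks that held an AP-1 site, the composite took 6.07% of JUNB peaks with IRF8 and 2.58% of those without (difference 3.49 points, 1.22 to 5.25). In the IRF8 list the same shares were 6.10% and 4.80%, and the interval of the difference (1.30 points, -0.165 to 2.95) holds 0. The cyclic AMP response element TGACGTCA was found in under 1% of each group.

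**Figure D3:**
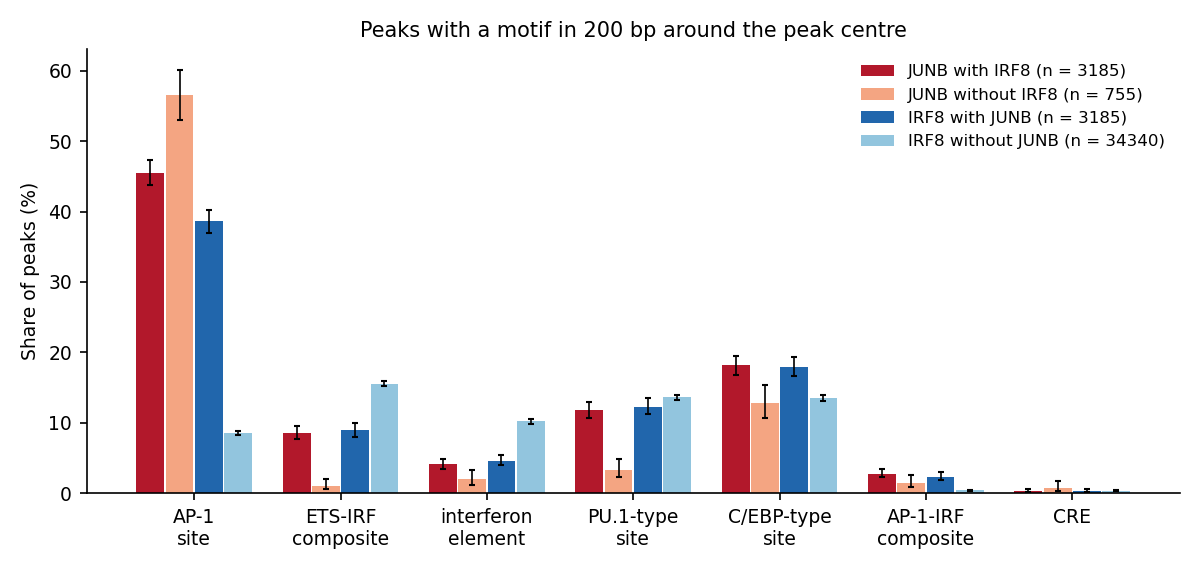
Share of peaks, in percent, with each of 7 motifs within 200 bp around the peak centre in the 4 groups, with 95% Wilson intervals. AP-1 sites were in 56.6% of JUNB peaks without IRF8, 45.5% of JUNB peaks with IRF8, 38.6% of IRF8 peaks with JUNB and 8.55% of IRF8 peaks without JUNB. The ETS-IRF composite was highest in IRF8 peaks without JUNB (15.5%).

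Shared IRF8 peaks were less often at promoters, and in the JUNB list the interval of this difference held 0 among the stronger peaks. By the deposited annotation, 2.39% of IRF8 peaks with JUNB were at a promoter against 7.70% of those without, a difference of -5.31 points (-5.87 to -4.66) with this sign in 10 of 10 score deciles. It was -2.51 points (-3.78 to -0.863) in the highest decile and -2.59 points against the 3940 strongest IRF8 peaks. In the JUNB list, 2.32% of peaks with IRF8 and 4.77% of those without were at a promoter (difference -2.45 points, -4.27 to -1.02, with this sign in 8 of 10 deciles). The interval holds 0 in the higher-scoring part of each list (-0.610 points, -2.03 to 0.503), against the 3940 strongest IRF8 peaks (-0.302 points, -1.41 to 1.19) and in the highest decile (-2.90 points, -16.6 to 0.272). The highest decile held only 29 JUNB peaks without IRF8, and its difference was no smaller than that over all peaks. None of 3185 IRF8 peaks with JUNB was on a 5′ UTR, which allows a share of up to 0.0942%, against 0.422% of the IRF8 peaks without JUNB.

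The shared peaks were instead more often intergenic. The intergenic share was 50.6% against 42.3% in the IRF8 list (difference 8.31 points, 6.50 to 10.1) and 50.8% against 45.2% in the JUNB list (difference 5.60 points, 1.64 to 9.53). Introns held 44.1% and 45.8% of IRF8 peaks with and without JUNB and 43.9% and 45.8% of JUNB peaks with and without IRF8, and both intervals of the difference hold 0. A transcription start site (TSS) lay within 1000 bp of 2.98% and 10.8% of IRF8 peaks with and without JUNB, and of 2.95% and 7.02% of JUNB peaks with and without IRF8. The median distance to the TSS was 26740 and 20382 bp in the IRF8 list and 26882 and 23180 bp in the JUNB list.

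**Figure D4:**
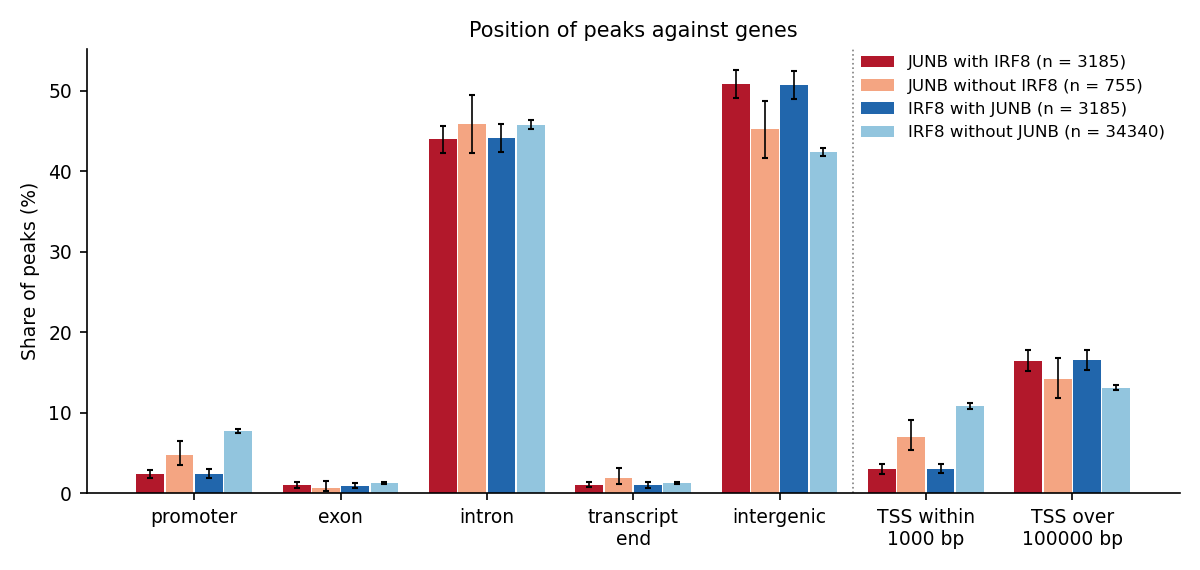
Share of peaks, in percent, by deposited annotation (left of the dotted line) and by distance to the nearest TSS (right) in the 4 groups, with 95% Wilson intervals. Promoters held 2.39% of IRF8 peaks with JUNB and 7.70% of those without, and intergenic sequence 50.6% and 42.3%.

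C/EBPα, a leucine zipper factor of the myeloid lineage, was found at most shared sites. A C/EBPα control peak overlapped 79.3% of IRF8 peaks with JUNB (77.9 to 80.7%) and 34.1% of those without (33.6 to 34.6%), a difference of 45.2 points (43.7 to 46.7). It overlapped 79.0% of JUNB peaks with IRF8 and 44.0% of those without, a difference of 35.1 points (31.2 to 38.8). Both differences had this sign in 10 of 10 score deciles.

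Over all peaks, shared sites were also more often found again in the sample given 20 ng/ml IL-4 for 1 h. The IRF8 list after IL-4 held 92.6% of the IRF8 control peaks with JUNB and 77.3% of those without, but the share was higher with JUNB in 7 of 10 score deciles and lower in 1, and in the highest decile all 708 and all 3045 peaks were found again. The JUNB list after IL-4 held 39.4% of the JUNB peaks with IRF8 (37.7 to 41.1%) and 20.5% of those without (17.8 to 23.6%), with this sign in 10 of 10 deciles. Of the 755 JUNB peaks without IRF8 in control, 250 (33.1%) overlapped an IRF8 peak after IL-4.

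**Figure D5:**
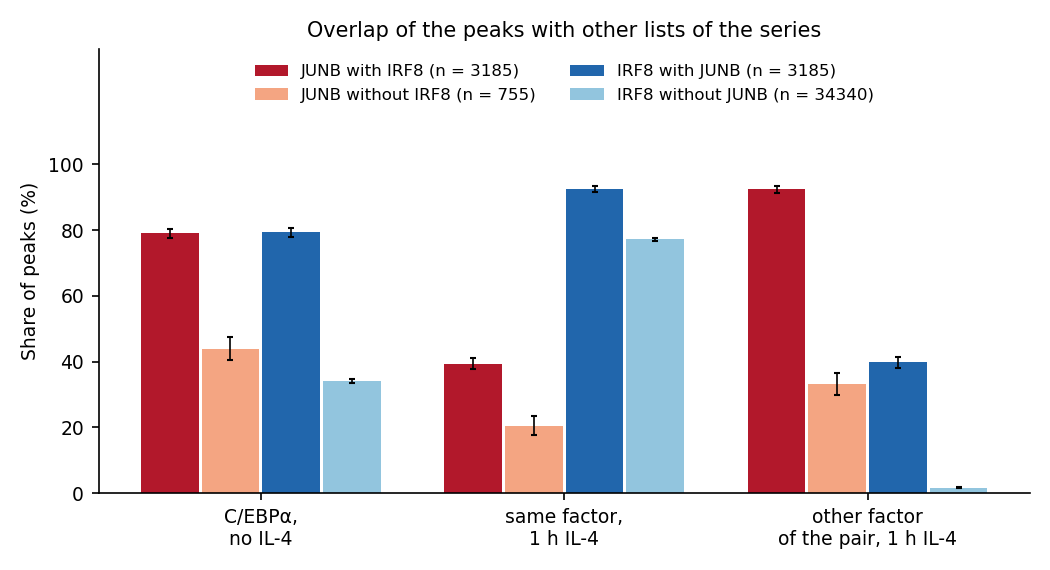
Share of the control peaks of each group, in percent, that overlap the C/EBPα control list, the list of the same factor after 1 h of IL-4 and the IL-4 list of the other factor of the pair, with 95% Wilson intervals. C/EBPα overlapped 79.0 and 79.3% of the shared groups against 44.0 and 34.1% of the unshared ones.

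By nearest gene, nearly all JUNB genes were IRF8 genes. Most of this follows from the overlap of the peaks, since 2303 of these genes had a shared peak. The share of all genes that are nearest to an IRF8 peak was not computed. Of 2715 genes nearest to a JUNB peak, 2642 (97.3%) were also nearest to an IRF8 peak, and these were 21.7% of the 12167 IRF8 genes. The other 73 had JUNB only. Of the 684 genes with a JUNB peak that missed IRF8, 272 also had one that overlapped it, and of the remaining 412, 339 had an IRF8 peak elsewhere. Genes with a JUNB peak had a median of 5 IRF8 peaks against 2 for IRF8 genes without JUNB, so the share of genes with an overlap goes with the number of IRF8 peaks.

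The genes with the most shared peaks were Gm20125 (10 JUNB peaks with IRF8, of 34 IRF8 peaks), 1700016G22Rik (10), Mir3110 (8), H2afy3 (6) and Rap2b (6). Mir3110 encodes a microRNA, H2afy3 a histone variant and Rap2b a small GTPase. The most JUNB peaks without IRF8 lay nearest to Btg1, an antiproliferative gene, with 5 of its 8 JUNB peaks without IRF8 although 36 IRF8 peaks were assigned to it. Nsmce2, 3110015C05Rik, Lmna (lamin A/C) and Pisd-ps1 had 3 each, and neither Nsmce2 nor Lmna had a shared peak. Pisd-ps1 is a pseudogene whose reads may belong to a near-identical copy, which was not tested.

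Gene groups differed in how often an IRF8 gene also held a shared peak, against 18.9% (2303 of 12167) of all genes nearest to an IRF8 peak. Genes with more IRF8 peaks had more chances of one, so the share of IRF8 peaks that overlapped JUNB is given beside the number of genes. The macrophage markers come first, beside markers of other cells. All 12 had an IRF8 peak and 10 had a shared peak, among them Csf1r, Fcgr1, Lyz2 and Cx3cr1, and 13 of their 58 IRF8 peaks overlapped JUNB (22.4%, 13.6 to 34.7%, against 8.49% of all IRF8 peaks). Of 8 T and B lymphocyte markers 3 had an IRF8 peak and 1 (Ms4a1) a shared peak, and of 8 markers of other cells 5 had an IRF8 peak and 2 (Epcam and Cdh5) a shared one. JUNB overlapped 1 of 8 IRF8 peaks of the lymphocyte markers (12.5%, 2.24 to 47.1%) and 2 of 11 of the markers of other cells (18.2%, 5.14 to 47.7%), intervals that hold the share of the macrophage markers. The highest IRF8 score was 194.78 at Ms4a1, 124.44 at Cdh5 and 34.51 at Epcam. It was 54.72 at Csf1r, 175.59 at Fcgr1, 80.73 at Lyz2 and 114.22 at Cx3cr1. A peak is not a level of the gene, and these peaks do not check the cell type. The shared peak of Lyz2 lay on a long terminal repeat, with scores of 8.32 for JUNB and 3.57 for IRF8. It overlapped no IRF8 peak after IL-4, and the strongest IRF8 peak of the gene scored 80.73. At Fcgr1, the high-affinity IgG receptor, the JUNB scores of the shared peaks were 19.30 and 5.90 beside IRF8 scores of 175.59 and 5.03. At Cx3cr1, the fractalkine receptor, JUNB scored 9.16 beside 114.22 for IRF8 in the intron of the gene and 10.49 beside 4.77 on the 3′ UTR.

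Inflammatory genes often held both factors. Of 16 genes, all had an IRF8 peak and 11 had a shared peak, and 15 of their 71 IRF8 peaks overlapped JUNB (21.1%, 13.2 to 32.0%). Ccl2, a monocyte chemoattractant, had shared peaks at -12735 bp from its TSS (JUNB 20.02, IRF8 180.45; a negative distance is upstream) and at -28431 bp (10.69 and 21.61). Ptgs2, the inducible cyclooxygenase, had 3 shared peaks, of which the highest for JUNB scored 21.04 beside 8.35 for IRF8 and the highest for IRF8 scored 62.48 beside 3.95 for JUNB. Il10, Ccl4, Ccl2 and Tnf also had JUNB peaks without IRF8, and in Ccl4 this was the promoter peak, at -96 bp with a score of 5.39. Tnf had a single JUNB peak, without IRF8, in intron 3 with a score of 3.41.

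Macrophage transcription factor genes had the largest numbers of both peaks. Of 12, 10 had an IRF8 peak and 7 a shared peak, and 26 of their 191 IRF8 peaks overlapped JUNB (13.6%, 9.46 to 19.2%). Maf had 6 JUNB peaks, all shared, of which the strongest at 283649 bp scored 14.68 for JUNB and 39.07 for IRF8. Runx1 had 5 shared peaks and 1 JUNB peak without IRF8, with its strongest JUNB peak (15.41) at the strongest IRF8 peak of the gene (174.19). All 5 JUNB peaks of Mef2c were shared, and Klf4 had 2 of each kind. Many lay far from the gene. Those of Mef2c were between -554311 and 97928 bp from its TSS. At Klf4 the shared peaks lay at -283606 and -431666 bp and the others at -9381 and -199733 bp.

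Interferon-stimulated genes, many of which IRF factors regulate, and antigen presentation genes had 4 and 0 JUNB peaks, and neither list could be told apart from all IRF8 peaks at these counts. Of 20 interferon-stimulated genes, 19 had an IRF8 peak and 2 (Ifi204 and Ddx58) a shared peak, and 3 of their 54 IRF8 peaks overlapped JUNB (5.56%, 1.91 to 15.1%, which includes the 8.49% of all IRF8 peaks). Ifit3 had a JUNB peak without IRF8 at -712 bp with a score of 5.10. Its gap to the nearest IRF8 control peak was only 13 bp, and it overlapped an IRF8 peak after IL-4. Of 12 antigen presentation genes 11 had an IRF8 peak and none had a JUNB peak. None of their 27 IRF8 peaks overlapped JUNB, and a count of 0 allows a share of up to 11.1%, which includes the 8.49% of all IRF8 peaks.

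Among the genes of the factors' own families, 6 of 12 AP-1 genes and 3 of 9 IRF genes had a JUNB peak. Of the AP-1 genes 11 had an IRF8 peak and 4 a shared peak, and 5 of their 78 IRF8 peaks overlapped JUNB (6.41%, 2.77 to 14.1%). Fos had 2 shared peaks, with JUNB scores of 8.65 and 8.00 beside IRF8 scores of 63.96 and 11.84, Jun had 1 (JUNB 9.23, IRF8 36.75) and Batf3 had 1 (7.77 and 10.21). Atf3, outside the naming rule, had 1 with the highest JUNB score of these genes (23.35). Junb and Jund had a JUNB peak without IRF8, at 3029 bp with a score of 4.86 and at 1079 bp with a score of 9.91. Of the IRF genes 8 had an IRF8 peak and 2 a shared peak, and 3 of their 53 IRF8 peaks overlapped JUNB (5.66%, 1.94 to 15.4%). Both intervals hold the 8.49% of all IRF8 peaks. Irf2 had 2 shared peaks in introns, and Irf5 had a shared promoter peak at -104 bp (JUNB 5.69, IRF8 103.32). Irf8 had 9 IRF8 peaks and a JUNB peak without IRF8 at -20173 bp (4.80).

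For lysosome and matrix genes the intervals also hold the 8.49% of all IRF8 peaks. Of 12 lysosome genes all had an IRF8 peak and 6 a shared one, and 8 of their 53 IRF8 peaks overlapped JUNB (15.1%, 7.85 to 27.1%). Ctsk, a collagen-degrading cathepsin, had 3 shared JUNB peaks, and at Ctsb the IRF8 peak of score 251.59 in intron 1 met a JUNB peak of 6.45 while a second JUNB peak in the same intron (6.69) had no IRF8. Of 17 matrix, adhesion and growth factor genes 16 had an IRF8 peak and 8 a shared one, and 10 of their 86 IRF8 peaks overlapped JUNB (11.6%, 6.44 to 20.1%). Cd44, the hyaluronan receptor, had a shared peak at -47054 bp (JUNB 28.68, IRF8 69.75), and Lgals3, which encodes galectin-3, had 3 shared JUNB peaks and a stronger one without IRF8 at -1970 bp (12.81). Itgav, Thbs1 and Atp6v0d2 each had 1 JUNB peak of either kind. Peaks of both kinds at 1 gene were thus present in 272 of the 2715 JUNB genes.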

How the data were processed

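Chromatin of BMDMs was fixed with DSG and formaldehyde, and libraries were made with either of 2 kits. Which kit served which sample, the control library and the number of reads are not given in the sources used here, so the depth is unknown. The authors aligned reads to mm10 and called peaks per sample with MACS2, and removed blacklisted regions. The submitters' processing notes name BWA 0.7.10, SAMtools 0.1.19, HOMER 4.2 and MACS2 2.0.10. The deposited peak score, annotation, distance to the TSS and nearest gene were taken unchanged from the authors' files. The score has no stated unit.

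Peaks that overlapped by at least 1 bp were shared. Annotation classes, TSS distance, nearest genes and score percentiles were compared within each list, over all peaks and within deciles by score. Motifs were searched on both strands in 200 bp around the peak centre in GRCm38, the assembly mm10 names (0 peaks ended past a chromosome end). Flanks were taken 2000 bp away. No p-value was computed, because each factor had 1 sample and peaks are not replicates. Intervals are 95%, and the limit for a count of 0 is 3 counts.

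Named were the 5 highest peaks of each group, the 5 genes with most shared and most unshared JUNB peaks, the 3 most discordant pairs each way, and in each gene list up to 3 members with most JUNB peaks and those with a JUNB peak without IRF8. The members and lists were chosen with earlier results of these data known. Alternatives changed the overlap rule, peak width, score range, chromosomes, promoter distance, window and repeats. Scripts ran in Python 3.11.15 with numpy 2.4.6, pandas 2.3.3, scipy 1.17.1, pysam 0.24.0 and matplotlib 3.10.9, and were tested on simulated data (8 of 8 checks passed) and against bedtools 2.31.1.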

Additional observations from a re-analysis of the deposited data

Results flagged for a closer look

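For 4 motifs the difference between peaks with and without the other factor had opposite signs in the IRF8 and the JUNB list, with both intervals off 0. The difference between the lists was not tested, since each list is 1 sample. The AP-1 site was 30.03 points higher with JUNB among IRF8 peaks and -11.03 points different with IRF8 among JUNB peaks. The ETS-IRF composite differed by -6.556 points in the IRF8 list and 7.512 points in the JUNB list. The interferon response element differed by -5.568 and 2.126 points, and the PU.1-type site by -1.358 and 8.494 points, in the same order. Without the repeats the PU.1-type difference in the IRF8 list was -1.208 points (-2.406 to 0.0786), an interval that holds 0. The shared peaks of both lists are mostly the same stretches of genome, so the 2 shared groups are not independent.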

How the results depend on the processing

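No paired analysis was possible because each factor had 1 control sample, and for the same reason no replicate could be left out. The 50 values computed under alternatives were 7 for each share of a list, which cannot change sign, and 9 for each difference. No difference changed sign, and 28 of the 50 values stayed within the counting interval of the main value. The share of JUNB peaks with IRF8 was 69.11% when centres had to lie within 100 bp, 78.91% when the shorter peak had to be covered by 50% or more, 78.78% with peaks of 200 bp, 65.70% in the higher-scoring part of each list (percentile 50 and above) and 18.93% against the 3940 strongest IRF8 peaks. The share of IRF8 peaks with JUNB was 7.256%, 6.919% and 18.78% with centres within 100 bp, in the higher-scoring part and with matched list length. The AP-1 difference in the IRF8 list was 33.25 points with centres within 100 bp, 18.82 in the highest score decile, 19.11 with matched length and 19.56 with a 100-bp window. In the JUNB list it was -6.685 points with centres within 100 bp, -6.708 in the highest decile, where the interval holds 0, and -19.08 with matched length. The promoter difference in the IRF8 list was -4.027 points in the higher-scoring part, -2.505 in the highest decile, -2.589 with matched length and -9.173 for TSS within 2000 bp. In the JUNB list it was -0.6095, -0.3022 and -5.248 points in the higher-scoring part, with matched length and for TSS within 2000 bp, and the intervals of the first and the second hold 0, as does that of the highest JUNB decile (-2.902 points). Leaving out the repeats and the highest JUNB decile were chosen after seeing the data. The cause of these shifts was not tested. Unknown depth and 1 sample a side limit every share.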

Other observations

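JUNB peaks fell on 3 consecutive exons of Pparg, the only gene with 2 or more of the 36 JUNB peaks on exons. Exon 3 (chr6:115439727-115440016) scored 41.64 for JUNB and 11.12 for IRF8, exon 4 (chr6:115441390-115441664) 17.27 and 6.29, and exon 5 (chr6:115450869-115451185) 98.89 and 34.61, at distances of 17805, 19461 and 28961 bp from the TSS. None overlapped a C/EBPα control peak, although 79.0% of JUNB peaks with IRF8 did. The peak on exon 3 held an AP-1 site and those on exons 4 and 5 did not. After IL-4 the JUNB list had peaks on exon 3 (9.28) and exon 5 (20.11) and none on exon 4. This gene was picked after its values were seen, and what produced the peaks was not tested.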
